A study of Arabidopsis thaliana with 7 samples.

Results

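CIPK genes encode the CBL-interacting protein kinases of Arabidopsis thaliana. CCA1, a MYB-related transcription factor of the circadian clock that is most abundant around dawn, had chromatin immunoprecipitation sequencing (ChIP-seq) peaks at 6 of them: CIPK4, CIPK14, CIPK15, CIPK20, CIPK21 and CIPK25. The members were taken from the authors' annotated peak lists as the nearest genes of peaks whose gene name starts with CIPK or whose gene description names a CBL-interacting kinase. They are 6 of the 1760 genes that lay nearest to a peak, and 6 of the 26 numbered CIPK genes. All plants were of the WS-2 ecotype and carried CCA1 fused to green fluorescent protein and driven by the CCA1 promoter. Seedlings aged 14 days, raised under 12 h of light and 12 h of dark, were collected whole at zeitgeber time (ZT) 2, either still in those cycles (LD, 2 libraries) or after transfer to continuous light (LL, 3 libraries). Chromatin was precipitated with anti-GFP, and IgG and input served as controls. Whether the plants also had an untagged CCA1 was not given in the sources used here. A ZT14 library in continuous light and an input library were not analysed here.

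Each regime was deposited as a single peak list made from its combined libraries, with 1433 peaks in LL and 1607 in LD. No value below therefore has a spread between replicates, and no difference between regimes was tested. A peak spanned 159 bp in LL and 125 bp in LD, and its tags (aligned reads assigned to it) numbered 17 to 229 in LL (median 26) and 31 to 234 in LD (median 46). Intervals on tags are exact 95% Poisson intervals and cover counting error alone. Tags were not scaled between the lists, so raw counts and their intervals can be compared only within a list. The score of a peak, its folds and the gene it is assigned to come from the authors, and positions are on TAIR10. Because whole seedlings were pooled, binding in more cells and stronger binding per cell cannot be told apart.

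Plant cells decode calcium signals partly through CBL proteins, small calcium sensors related to calcineurin B. A CBL that has bound calcium attaches to a CIPK, releases its kinase domain from inhibition by the protein's own C-terminal part, and brings it to the plasma membrane or the vacuolar membrane. There the kinases act on ion channels, transporters and proton pumps, which links them to salt tolerance, potassium and nitrate uptake and responses to abscisic acid. CIPKs form the SnRK3 branch of the plant kinases related to yeast SNF1.

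Of the 26 CIPK genes, 5 carried a peak in LL (19.2%, with a 95% Wilson interval from 8.51 to 37.9) and 6 in LD (23.1%, 11.0 to 42.1). Over all 37899 nuclear genes of the RefSeq annotation, 3.38% had an LL peak and 3.77% an LD peak. Only 27444 of these genes are protein-coding, as the CIPK genes are. Shares over protein-coding genes alone, which may be higher, were not computed. The 5 genes bound in LL were all bound in LD as well, as were 76.7% of all nuclear genes with an LL peak, and 5 genes are too few to set these apart. Over all nuclear genes, 2.59% had a peak in both lists. The counts rest on the nearest promoter. CIPK4 and CIPK20 had peaks more than 1000 bp upstream and outside the promoter category. Without them, 3 genes were bound in LL and in both regimes, and 4 in LD. Of all peaks, 64.1% in LL and 64.0% in LD lay within 1000 bp of a TSS. The shares of 3.38% and 3.77% therefore do not match these smaller counts, and shares under such a limit were not computed. The family was singled out with these peaks known, so the shares describe it and were not tested. Each bound CIPK gene had 1 peak per list. The remaining 20 members had none, among them CIPK24 (SOS2), the kinase of the salt-tolerance pathway, and CIPK23, which acts on potassium and nitrate uptake. A gene without a peak is one at which no site passed the authors' calling steps, not one shown to lack CCA1.

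CIPK20 carried the strongest CCA1 signal of the family in both regimes by tags and by score. CIPK20 (AT5G45820, also PKS18) has been linked to abscisic acid sensitivity. Its LL peak, on chromosome 5 from 18589510 to 18589668, held 56 tags (42.3 to 72.7). The LD peak, from 18589535 to 18589659, held 112 tags (92.2 to 135). The scores of 54 and 117 exceeded those of 90.2% of LL peaks and 94.7% of LD peaks. In LD the tag interval of CIPK20 lay above that of every other bound CIPK gene, whereas in LL it overlapped those of CIPK4, CIPK21 and CIPK25. The signal stood 19.1-fold over control in LL and 26.3-fold in LD, and 28.4-fold and 21.4-fold over the surrounding sequence.

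The position of the CIPK20 peak leaves the gene it belongs to uncertain. Its centre lay 1046 bp upstream of the CIPK20 transcription start site (TSS) in LL and 1054 bp upstream in LD. The authors' annotation column places the same peak in the 3' UTR of the neighbouring AT5G45830, in exon 3 of 3. That gene is DOG1, a regulator of seed dormancy, and follows CIPK20 directly in RefSeq order. Peaks in a 3' UTR were few, with 12 in LL (0.837% of peaks) and 15 in LD (0.933%). Among them the CIPK20 peak ranked 2 by score in LL, behind a peak of score 56, and 1 in LD, ahead of a peak of score 100. CIPK19, the neighbour on the other side of CIPK20, had no peak of its own.

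**Figure D1:**
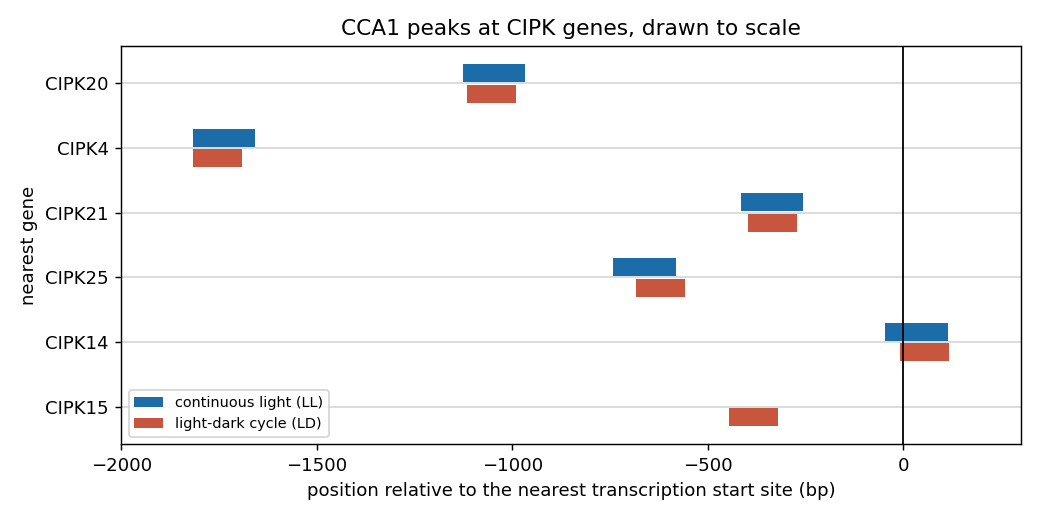
Position of each CCA1 peak relative to the transcription start site of its nearest CIPK gene, in bp, with negative values upstream and bar lengths equal to the peak size (159 bp in LL, 125 bp in LD). Only CIPK14 has its peaks on the start site, the peaks of CIPK4 and CIPK20 lie more than 1000 bp upstream, and CIPK15 has an LD peak alone.

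CIPK14 and CIPK15 stand next to each other on chromosome 5, and their peaks differed in place and in regime. CIPK14 (AT5G01820), listed in RefSeq under the name SR1, interacts with the vacuolar calcium sensors CBL2 and CBL3. It was the only member with peaks downstream of its TSS, centred at 34 bp in LL (chromosome 5, 314887 to 315045) and 54 bp in LD (314884 to 315008). These peaks held 26 tags (17.0 to 38.1) in LL and 60 tags (45.8 to 77.2) in LD, with scores of 26 and 61. The LL count equals the median of the list, and the LD count is above the median of 46 but below the upper quartile of 64. Their control tags were low, at 0.9 and 1.5, and the folds over control of 29.5 and 40.3 exceeded those of 87.7% and 94.0% of peaks. Against the surrounding sequence the folds were only 8.52 and 8.88, which exceeded 15.6% and 24.0% of peaks.

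CIPK15 (AT5G01810, also PKS3), a negative regulator of abscisic acid responses that binds the phosphatases ABI1 and ABI2, was the only member bound in a single list. Its LD peak covered 308990 to 309114 of chromosome 5, with its centre 382 bp before the TSS, and held 37 tags (26.1 to 51.0). The score of 37 put it at rank 1263 of 1607, and the fold over the surrounding sequence was 5.95, which exceeded 5.10% of LD peaks. The fold over control, 15.8, was close to the list's median of 14.8. The nearest LL peak was that of CIPK14, 5914 bp away. In normalised tags, which multiply tags by 1 constant per list, CIPK15 stood at 127.4 in LD. The lowest peak of the LL list stood at 127.2, which is 17 tags. At the median LD over LL ratio of 0.800, the CIPK15 signal would come to 21.3 LL tags. That ratio comes only from sites called in both lists, so it need not hold at a site without an LL peak. Of 303 LD peaks with a score within 2 of CIPK15, 125 overlapped an LL peak (41.3%, 95% Wilson interval 35.9 to 46.9). Whether the LL calling limit accounts for the missing CIPK15 peak was not tested.

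CIPK21 and CIPK25 were bound upstream of the TSS, with tags between the median and the upper quartile of each list. CIPK21 (AT5G57630), which acts in osmotic and salt stress at the vacuolar membrane, had peaks 335 bp upstream in LL (chromosome 5, 23343514 to 23343672) and 334 bp upstream in LD (23343530 to 23343654). They held 36 tags (25.2 to 49.8) and 60 tags (45.8 to 77.2), with scores of 33 and 60. CIPK25 (AT5G25110), which has been linked to root growth and low-oxygen responses, had peaks 662 bp upstream in LL (8659905 to 8660063) and 621 bp upstream in LD (8659881 to 8660005). They held 36 tags (25.2 to 49.8) and 57 tags (43.2 to 73.9). The scores of 33 and 60 were the same as at CIPK21 and exceeded those of 68.7% of LL peaks and 68.8% of LD peaks.

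CIPK21 had the weakest enrichment over control of the family, and the highest control tags. These numbered 5.1 in LL and 10.8 in LD, against list medians of 2.1 and 3.2. Only 2.93% of LL peaks and 1.99% of LD peaks had more control tags. The folds over control were 7.08 and 5.53, the latter above 3.05% of LD peaks, while the lowest folds in the lists were 4.01 and 4.08. Against the surrounding sequence CIPK21 was ordinary, at 13.4-fold and 12.9-fold, with list medians of 12.9 and 11.4. CIPK25 had 1.3 and 2.1 control tags and stood 28.3-fold and 26.8-fold over control. Against the surrounding sequence it was also near the median in LL, at 12.3-fold, and lower in LD, at 7.48-fold, above 12.8% of peaks. In LD another peak, nearest to AT5G25120, lay 2237 bp from that of CIPK25, whereas in LL the next peak lay 63987 bp away. The part of that second peak in the lower LD fold was not tested. How far the control signal contributes to the CIPK21 peaks was not tested.

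**Figure D2:**
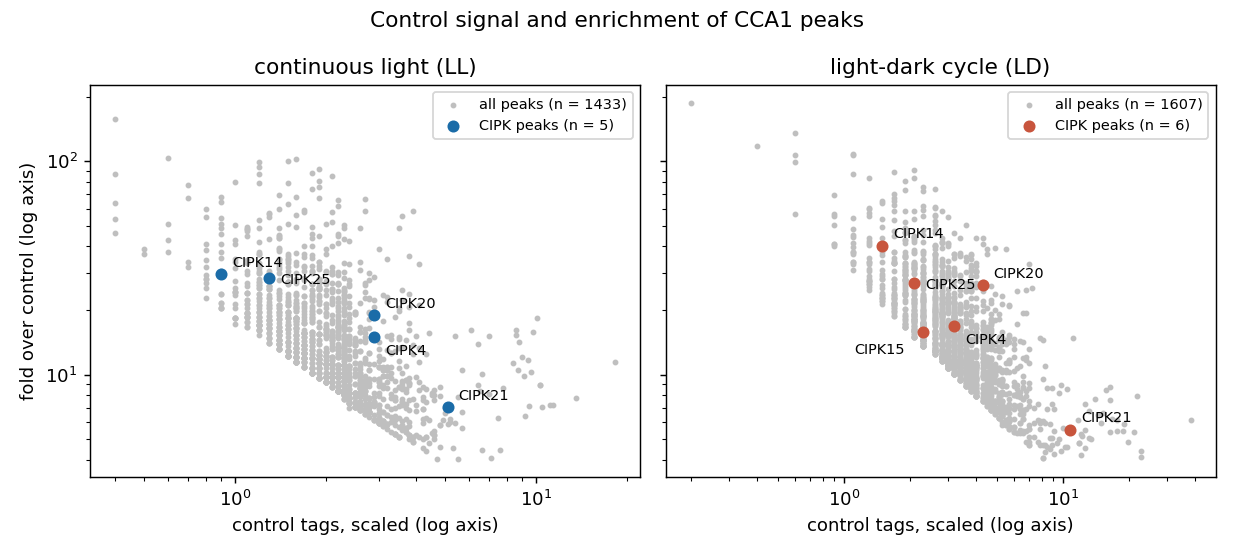
Fold over control against scaled control tags, both on log axes, for every peak of the LL list (left) and the LD list (right), with the peaks of CIPK genes named. CIPK21 lies at the high-control, low-fold end in both lists (5.1 and 10.8 control tags), and CIPK14 at the low-control, high-fold end (0.9 and 1.5).

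CIPK4 (AT4G14580) was the only bound member outside chromosome 5 and had the most distant peaks. They were intergenic, centred 1737 bp upstream of the TSS in LL (chromosome 4, 8370825 to 8370983) and 1754 bp upstream in LD (8370859 to 8370983). They held 44 tags (31.97 to 59.1) in LL and 54 tags (40.6 to 70.5) in LD, with scores of 40 and 55. The score ranked 279 of 1433 in LL and 577 of 1607 in LD. The folds over control of 15.0 and 16.9 were near the list medians of 13.6 and 14.8. No other peak lay within 121266 bp of this site in LL or 132482 bp in LD, so it stood alone on its stretch of the chromosome.

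**Figure D3:**
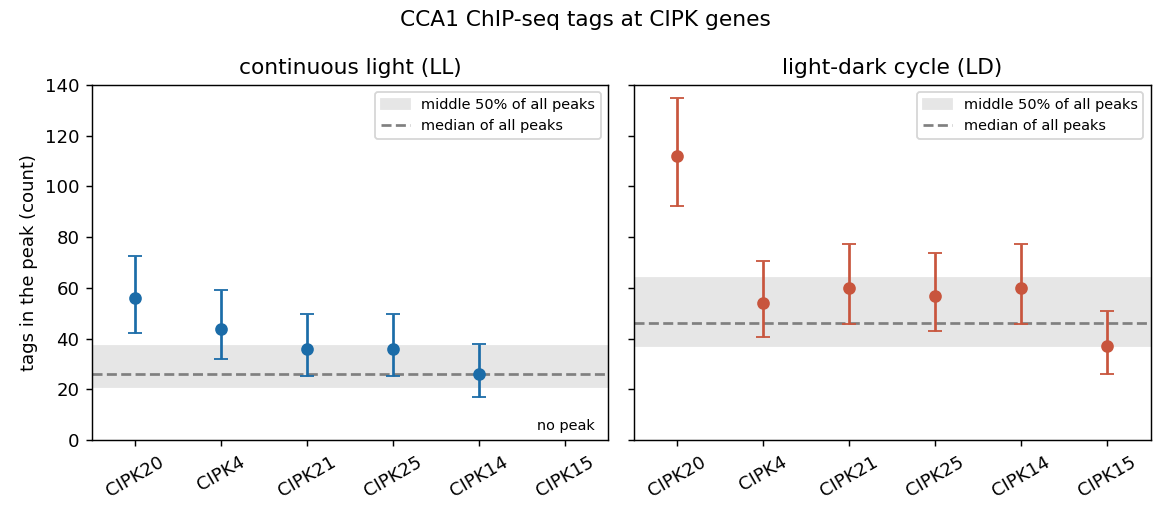
Tags in the CCA1 peak of each CIPK gene in LL (left) and LD (right), with exact 95% Poisson intervals. The dashed line is the median of all peaks in the list (26 in LL, 46 in LD) and the grey band the middle 50%. CIPK20 is highest in both panels (56 and 112), and CIPK15 has no LL peak. Tags are not scaled between the lists, so heights can be compared only within a panel.

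In LL the tag counts ran in the order CIPK20, CIPK4, then CIPK21 and CIPK25 at the same count, then CIPK14. The intervals of neighbours in this order overlapped, and only those of CIPK20 and CIPK14 were apart. In LD the order was CIPK20, then CIPK14 and CIPK21 at the same count, CIPK25, CIPK4 and CIPK15. Below CIPK20 all LD intervals overlapped. The median of the members' tags was 36 in LL and 58.5 in LD, beside 26 and 46 over all peaks. The focus ratio, from the program HOMER, is the share of a peak's tags placed correctly around its centre. At the members it ran from 0.735 to 0.829 in LL (median 0.800, beside 0.792 over all peaks). In LD it ran from 0.657 to 0.797 (median 0.743, beside 0.762). The lowest was that of CIPK14 in LD, above 8.15% of peaks. GC content around the peak was 27.9% to 33.7% in LL and 29.9% to 36.7% in LD, with list medians of 32.7% and 33.3%. The authors' p-values over control ran from 2e-114 at CIPK20 in LD to 5.25e-19 at CIPK21 in LL.

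Binding was mostly upstream, as in the lists as a whole. The centre lay upstream of the TSS for 4 of 5 LL peaks and 5 of 6 LD peaks, compared with 71.8% and 69.2% of all peaks. The promoter-TSS category held 3 LL and 4 LD peaks of the family, and 59.4% and 59.0% of all peaks. By chromosome, 5 of the 11 CIPK genes on chromosome 5 were bound and 1 of the 15 on chromosomes 1 to 4. Chromosome 5 held 25.5% of all LL peaks and 24.0% of all LD peaks. These are shares of peaks, and the share of all genes bound on each chromosome was not computed. The pair CIPK14 and CIPK15 is adjacent, so the members are not independent positions.

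At the 5 genes bound in both regimes, the peaks of the lists covered the same sites. All 5 LL peaks and 5 of the 6 LD peaks overlapped a peak of the other list, compared with 74.6% of all LL peaks and 66.5% of all LD peaks. The centres were 1 bp apart at CIPK21, 8 bp at CIPK20, 17 bp at CIPK4, 20 bp at CIPK14 and 41 bp at CIPK25, while the median over 1069 overlapping pairs was 15 bp. The overlap ran from 101 bp at CIPK25 to the full 125 bp of the LD peak at CIPK20, CIPK21 and CIPK4.

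Signal at these sites was compared in normalised tags, in which LD stood at a median of 0.800 times LL over all 1069 pairs. LL peaks are wider, and the part of the width in each ratio was not tested. CIPK14 had 194.6 normalised tags in LL and 206.6 in LD, a ratio of 1.06 (exact 95% interval 0.660 to 1.75). CIPK20 had 419.2 and 385.6, a ratio of 0.920 (0.662 to 1.29). These 2 genes lay on the upper side, above 81.4% and 66.8% of pairs. CIPK21 (269.5 and 206.6) had a ratio of 0.767 (0.499 to 1.19) and CIPK25 (269.5 and 196.3) one of 0.728 (0.472 to 1.14). CIPK4, with 329.3 in LL and 185.9 in LD, had the lowest ratio of the family, 0.565 (0.372 to 0.861), above 14.2% of pairs. All 5 intervals hold the median ratio of 0.800, and departures from it were not tested. Only the CIPK4 interval lies wholly below equal signal, as the median ratio itself does. The ratio shares its LL value with the level it is set against. Among pairs within 10% of the same LL level the median ratio was 0.849 for CIPK14, 0.663 for CIPK20, 0.736 for CIPK21 and CIPK25, and 0.679 for CIPK4.

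**Figure D4:**
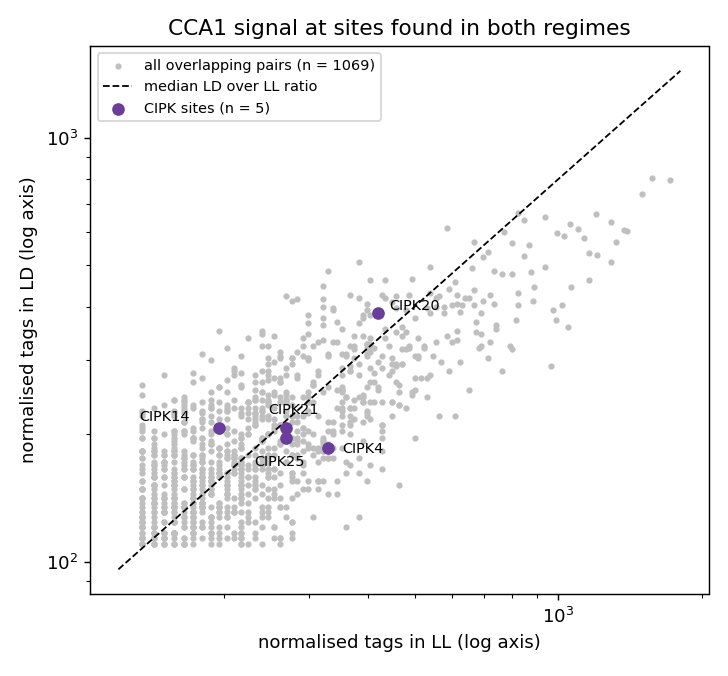
Normalised tags in LD against LL, both on log axes, for 1069 overlapping pairs of peaks, with the 5 CIPK sites named. The dashed line marks the median LD over LL ratio of 0.800. CIPK14 and CIPK20 lie above it and CIPK4 lies furthest below it among the family.

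Of the 10 CBL sensors that activate these kinases, 1 had an LL peak (95% Wilson interval 1.79% to 40.4%) and 2 had an LD peak (5.67% to 51.0%), beside 3.38% and 3.77% of all nuclear genes. The LL interval holds the share over all nuclear genes and the LD interval lies above it. Both rest on few genes and were not tested, and the share over protein-coding genes alone was not computed. CBL9 (AT5G47100), a plasma membrane sensor that works with CIPK23 in potassium uptake, had an LL peak of 27 tags (17.8 to 39.3) 441 bp upstream of its TSS and an overlapping LD peak of 33 tags (22.7 to 46.3) 439 bp upstream. CBL2 (AT5G55990), a sensor of the vacuolar membrane, had an LD peak alone, with 34 tags (23.5 to 47.5) at 14 bp downstream of the TSS. In LD both had a score of 36, which exceeded 14.5% of peaks, whereas the LL score of CBL9, 30, exceeded 60.1% of peaks. CBL1, CBL3 to CBL8 and CBL10 had no peak.

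Of 21 further partners and targets of the CBL and CIPK proteins, 2 had an LL peak and 2 an LD peak, or 9.52% in each regime. The 95% Wilson interval of 2.65 to 28.9 holds the shares over all nuclear genes, 3.38% in LL and 3.77% in LD. ABI5 (AT2G36270), a transcription factor of the abscisic acid response, had peaks in intron 1 of 4 in both lists, with 30 tags (20.2 to 42.8) in LL and 49 tags (36.3 to 64.8) in LD. NRT1.1 (AT1G12110), the nitrate transporter that CIPK23 phosphorylates, had an LD peak of 33 tags in intron 4 of 4, 2950 bp downstream of its TSS. ABR1 (AT5G64750), a repressor of abscisic acid responses, had an intergenic LL peak of 18 tags 2315 bp upstream. An LD peak of 41 tags nearest to PDX2 was placed by the annotation column in the promoter of GRIK2, a kinase that activates SnRK1. The channel and transporter genes SOS1, AKT1, AKT2, HAK5, SLAC1 and SLAH3 had none.

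Peaks were also counted at other calcium-dependent and related kinases. The calcium-dependent protein kinases (CPKs), which carry sensor and kinase in 1 protein, had no LL peak among 34 genes (95% Wilson interval up to 10.2%) and 3 LD peaks (8.82%, 3.05 to 23.0). Both intervals hold the shares over all nuclear genes, 3.38% and 3.77%. These lay at CPK3 (36 tags, 4 bp downstream of the TSS), CPK5 (41 tags, 513 bp upstream) and CPK13 (32 tags, 1147 bp upstream). Of 12 SnRK1 and SnRK2 genes, which with the CIPKs make up the SnRK family, 2 had an LL peak (16.7%, 4.697 to 44.8) and 1 an LD peak (8.33%, 1.49 to 35.4). The LL interval lies above the 3.38% of all nuclear genes, and the LD interval holds their 3.77%. These shares rest on few genes and were not tested, and no share over protein-coding genes alone was set beside them. SNRK2.2 (AT3G50500), a kinase activated by abscisic acid, had peaks in both lists with 42 tags (30.3 to 56.8) in LL and 82 tags (65.2 to 102) in LD. SNRK2.9 (AT2G23030) had an LL peak of 20 tags 14 bp downstream of its TSS. The CIPK interval in LL ran from 8.51 to 37.9, and that of the CPKs reached it only at its upper end, 10.2. Differences between the lists of genes were not tested. Overlapping intervals do not show that shares are alike, and the CIPK family was singled out with its peaks known.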

How the data were processed

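The submitters' processing notes name HOMER 4.7, Bowtie2 2.2.1, Trimmomatic 0.33, CASAVA 1.8 and the TAIR10 build, although the plants were WS-2. Per the file headers, peaks from an IDR (irreproducible discovery rate) top set of each regime's combined libraries, annotated with HOMER. The deposited values per peak are total tags (a count), the normalised tag signal (7.48 units per tag in LL, 3.44 in LD), a control tag signal, a score, fold ratios, a focus ratio and GC content (each a fraction) and p-values. The control library and the total tag number were not given in the sources used here. The nearest gene, distance to the TSS and annotation column are the authors'.

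Members, gene lists and rules were chosen with earlier results of these data known. Every listed gene with a peak is named. List symbols were matched to a RefSeq gene table (TAIR10.1), used for names and gene order only. Of the 1760 nearest genes, 1726 matched. An overlap of 1 bp or more made peaks of both lists shared. Intervals are exact Poisson (tags), exact conditional binomial (ratios) and Wilson (shares), at 95%. Interval and overlap code was tested on simulated data. Python 3.11.15, pandas 2.3.3, SciPy 1.17.1 and matplotlib 3.10.9 were used.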

Additional observations from a re-analysis of the deposited data

How the results depend on the processing

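With the gene of the annotation column in place of the nearest promoter, 3 CIPK genes had an LL peak, 3 had a peak in both regimes and 3 peaks of each list overlapped the other, against 5 for each as deposited. The LD count was 4 against 6. CIPK20 was then lost to DOG1 and CIPK4 to no gene. The same counts of 3, and of 4 in LD, followed with peak centres limited to 1000 bp before and 500 bp after the TSS. That limit removed the same CIPK4 and CIPK20. Shares over all nuclear genes were not recomputed for either setting. The upper 50% of each list by score, with peaks at the median kept, lost CIPK15 alone, leaving 5 LD genes. CIPK14 stayed in LL with a score of 26, which equals the median of that list. The upper 50% by fold over control, chosen after seeing the data, lost CIPK21 in both lists, leaving 4 LL and 5 LD genes. No count changed when both lists were cut to equal length, when sharing required 50% of each peak, or when it required centres within 500 bp. No paired analysis was possible because each regime was deposited as 1 combined list, and for the same reason no replicate was left out. The planned searches for evening elements and related motifs were not run, since they need a genome sequence, which was not used here. The ratios between regimes have wide counting intervals, from 0.660 to 1.75 at CIPK14, and the spread between replicates is not in them.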

Other observations

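Of the 20 CIPK genes without a peak, 3 had an immediate neighbour in RefSeq order with an LL peak and 1 a neighbour with an LD peak. Of all 36173 nuclear genes without a peak, 6.25% had such a neighbour in LL and 6.96% in LD. CIPK19 stands beside CIPK20, itself a bound member, which makes up 1 of the 3 LL cases and the LD case. The neighbour of CIPK12, AT4G18692, had an intergenic LL peak of 21 tags 2977 bp downstream of its TSS. The neighbour of CIPK23, AT1G30280, had an LL peak of 21 tags at -617 bp from its TSS. Both were chosen after their values were seen, and neither gene had an LD peak.

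CPK5 was bound in LD alone, but the nearest LL peak lay 963 bp away and was assigned to AT4G35300. LD had its own AT4G35300 peak, 968 bp from that of CPK5, which overlapped this LL peak. The other genes of the calcium lists with an LD peak alone had their nearest LL peak further off. The distance was 5914 bp for CIPK15, 9258 bp for NRT1.1, 26591 bp for CBL2, 48564 bp for CPK3 and 66750 bp for CPK13.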
